A study of Mus musculus with 12 samples.

Results

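The genes described here are 43 epithelial genes of the mouse, chosen by name: 6 role groups of keratins, tight junction proteins, desmosome proteins, adhesion and polarity proteins, regulators of transcription and splicing, and surface proteases with their inhibitors. They are 43 of 21938 protein-coding genes of the GENCODE M21 basic annotation (mm10). Their regulatory regions were taken as all open chromatin that overlapped the gene body or the 50 kb on either side. Peaks of all lists that overlapped were merged into loci, and 552 of the 147985 loci of the series lay in these windows. Of the 552, 42 lay within 1000 bp of a transcription start site (TSS) of a member and are called own promoter loci, 109 lay as close to a TSS of another protein-coding gene, and the remaining 401 are called distal. The windows of neighbouring members overlapped, so that 32 of the 552 loci counted for more than 1 member, 16 of them between Krt8 and Krt18 and 10 between Cldn3 and Cldn4.

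Open chromatin was measured by ATAC-seq, in which a transposase inserts adapters into accessible DNA, in mouse embryonic fibroblasts (MEFs) transformed with pairs of transgenes. The 12 libraries came from Hdac7SA.Mef2d cells (2 libraries), Hras.E1A cells with PD (2), with TSA (1) and untreated (2), and Hras.Myc cells with PD (2), with TSA (1) and untreated (2). Hdac7SA is the histone deacetylase Hdac7 with serines changed to alanine so that it is not exported from the nucleus, Mef2d and Myc are transcription factors, Hras is a RAS oncogene (written Ras in the sample titles) and E1A is an adenoviral protein. PD is the MEK inhibitor PD0325901, which blocks signalling downstream of RAS, and TSA is trichostatin A, which inhibits histone deacetylases. Both were given for 2 days, and about 50000 cells went into a library. All lines had been passaged for at least a month so that untransformed cells were lost. The MEFs were OG2 cells, from E13.5 embryos of mice with a GFP reporter of Oct4, as the sample labels and the study's methods have it for these experiments, while the growth protocol deposited with the samples names the ICR background. The study describes Hdac7SA.Mef2d cells as able to reprogram to pluripotency, Hras.E1A cells as able to do so only with MEK inhibition, and Hras.Myc cells as unable. Wildtype MEFs were not analysed here.

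Each group had 1 list of peaks, in which its libraries were pooled. There is therefore no spread between replicates, no test and no p-value for any difference below, and a locus called closed is one without a peak in that list. The lists held between 56774 peaks (Hras.Myc + PD) and 119251 peaks (Hdac7SA.Mef2d), every peak was 400 bp wide, and the depth behind them is unknown. Shares carry exact 95% intervals (Clopper-Pearson) for counting error alone, in which each locus is taken as independent of its neighbours. The score of a peak is given as its rank within its list, from 0 for the lowest to 100 for the highest. Fibroblast genes had an open promoter at 9 to 12 of 12 markers in every list, and 9 of the 12 were open in all 7 lists. Endothelial markers were open at 1 to 3 of 5 (Cdh5 and Tie1 in no list), blood and macrophage markers at 1 to 2 of 5 (Adgre1, Ptprc and Spi1 in no list) and neural markers at 2 to 5 of 5. In a population of cells, a locus open in fewer cells and a locus less open in every cell cannot be told apart.

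Epithelial cells hold together through tight junctions, which seal the space between cells with claudins, occludin and their scaffold proteins, and through desmosomes, which anchor keratin filaments. The Grhl and Ovol transcription factors promote these genes, and the Esrp splicing factors give many transcripts their epithelial form. Fibroblasts normally keep these programs off, and they are switched on in the mesenchymal to epithelial transition early in reprogramming. AP-1, a dimer of Fos and Jun proteins that is activated downstream of RAS and MEK, binds the motif TGANTCA.

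The loci that lost their peak with PD in both Hras lines were ranked by their score in the untreated lists, and the sequences of some of the leading ones are shown here because the later comparison of motifs rests on loci like them. Each is the central 200 bp on the plus strand of mm10 (RefSeq GRCm38.p6), 5′ to 3′, with the AP-1 motif TGANTCA in capitals. Those of Grhl2 lie in introns of the gene, and that of Dsp lies 27498 bp upstream of its TSS and in no annotated gene.
Grhl2, 31466 bp downstream of the TSS, chr15:37264403-37264602: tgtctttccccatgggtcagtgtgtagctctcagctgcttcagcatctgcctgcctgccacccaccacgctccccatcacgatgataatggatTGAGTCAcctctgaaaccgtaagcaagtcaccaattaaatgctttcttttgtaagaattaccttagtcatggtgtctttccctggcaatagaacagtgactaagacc
Grhl2, 11454 bp downstream of the TSS, chr15:37244391-37244590: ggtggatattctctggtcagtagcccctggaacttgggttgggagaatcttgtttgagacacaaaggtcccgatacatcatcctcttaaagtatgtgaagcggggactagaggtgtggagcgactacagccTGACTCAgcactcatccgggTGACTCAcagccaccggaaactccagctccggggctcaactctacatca
Dsp, 27498 bp upstream of the TSS, chr13:38123697-38123896: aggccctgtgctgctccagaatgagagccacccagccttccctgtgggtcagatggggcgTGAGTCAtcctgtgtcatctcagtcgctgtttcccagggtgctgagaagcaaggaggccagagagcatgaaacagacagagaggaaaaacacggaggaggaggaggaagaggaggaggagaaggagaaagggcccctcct
Grhl2, 22720 bp downstream of the TSS, without the motif, chr15:37255657-37255856: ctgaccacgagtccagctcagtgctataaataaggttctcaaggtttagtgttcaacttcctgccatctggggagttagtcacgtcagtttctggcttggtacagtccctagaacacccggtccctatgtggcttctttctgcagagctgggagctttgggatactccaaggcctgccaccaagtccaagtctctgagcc
The first 3 hold 1, 2 and 1 copies of the motif, while the last Grhl2 locus and the leading Tjp1 locus, 25496 bp from its nearest TSS in an intron, hold none.

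Most members had open chromatin at their own promoter in each list as deposited, 30 to 34 of the 43 by list, against 62.0% to 65.9% of the 21827 genes with a coding TSS. The count depended on peaks of low rank. In lists of equal size it was 9 in Hdac7SA.Mef2d (20.9%, 10.0 to 36.0), against 34.3% of all genes, and 18 in untreated Hras.E1A (41.9%, 27.0 to 57.9), against 52.6%. Without the 25% of peaks with the lowest scores it was 18 in Hdac7SA.Mef2d, 18 in Hras.Myc + PD and 19 in untreated Hras.Myc, against 56.5%, 52.9% and 54.1% of all genes. Accessibility is not expression, which these files do not hold. An own promoter was open in all 7 lists for 27 of the 43 members (62.8%, against 57.7% of all protein-coding genes). It was open in no list for 9 members (20.9%, against 30.8%) and in some lists only for 7 members (16.3%, against 11.5%). The 27 were Krt8, Krt18 and Krt19 among the keratins. They were Cldn1, Cldn7, Cldn12, Ocln, Tjp1, Cgn, F11r and Lsr at the tight junction, and Dsp, Dsc2, Jup, Pkp1 and Pkp2 in the desmosome. Epcam, an adhesion molecule of epithelia, and Patj, a polarity scaffold, belonged to them as well. So did the regulators Esrp1, Esrp2, Grhl1, Grhl3, Ovol2 and Elf3, and the membrane protease St14 with its inhibitors Spint1 and Spint2. The 9 without a promoter locus were Krt5, Krt7, Krt14, Cldn6, Tjp3, Crb3, Rab25, Ehf and Prss8. The observed over expected CpG ratio was taken within 500 bp of each TSS, and the highest of a gene was kept. Its median was 0.718 in the 27, 0.693 in the 7 and 0.313 in the 9. Over all protein-coding genes the same medians were 0.758, 0.417 and 0.185.

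**Figure D1:**
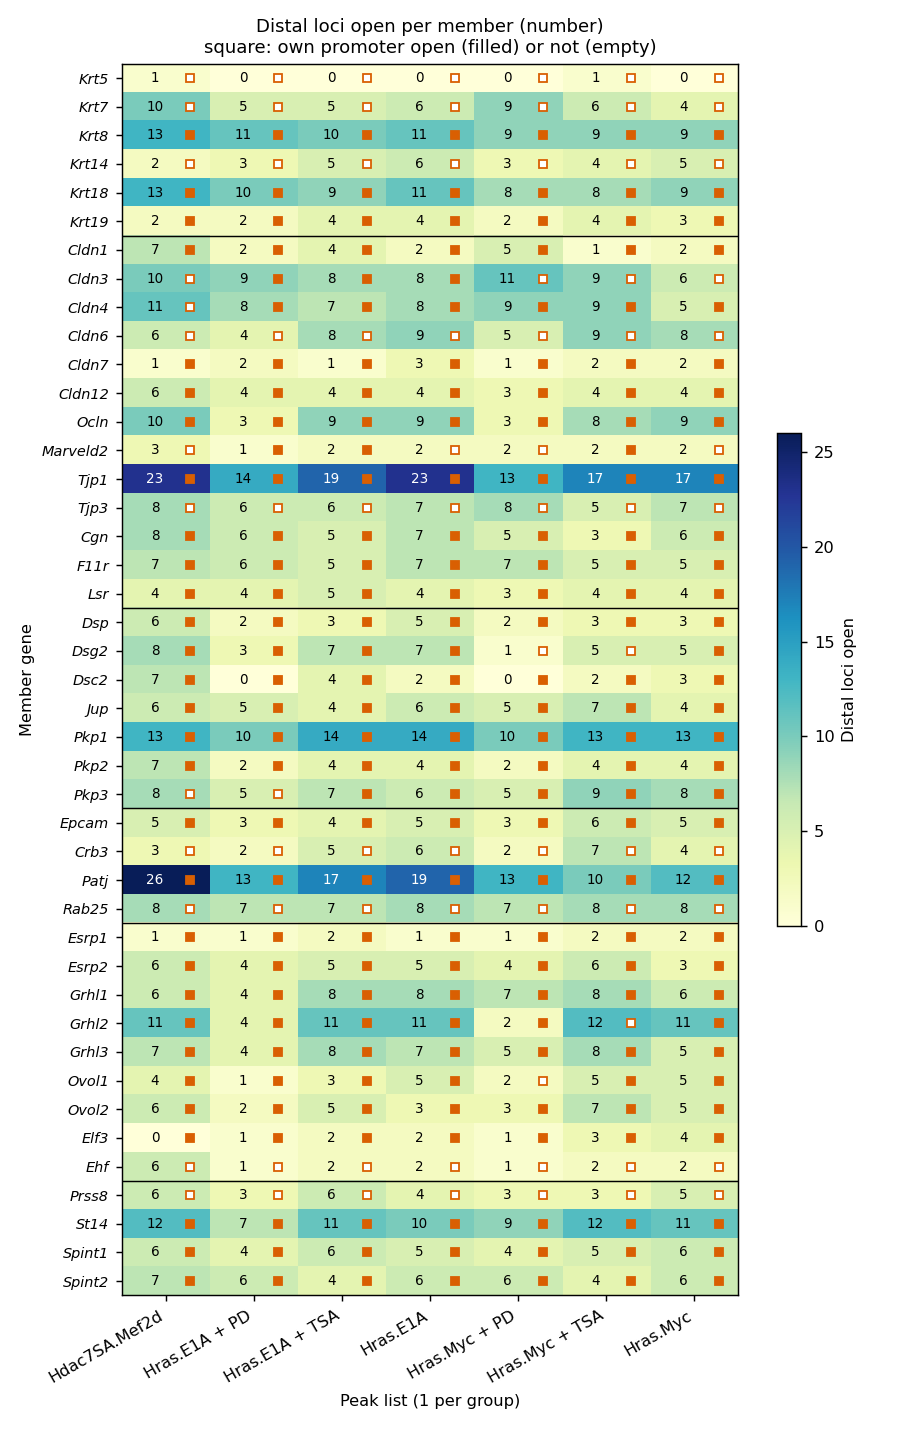
Number of distal loci open for each of the 43 members (rows, by role group) in each of the 7 peak lists (columns), with a square that is filled where an own promoter locus was open. Patj and Tjp1 had most distal loci open in Hdac7SA.Mef2d, 26 and 23, and Krt5 had at most 1.

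The promoters that were open in some lists only followed no common order. Cldn3, a claudin, had an open promoter in the 3 Hras.E1A lists, at ranks of 27.4 with PD, 34.0 with TSA and 29.3 untreated, and in no other list. Its neighbour Cldn4 had one in all lists except Hdac7SA.Mef2d, at rank 28.8 in Hras.E1A + PD against 80.4 untreated, and at rank 70.8 in Hras.Myc + PD against 93.4 untreated. Marveld2, the tricellular junction protein tricellulin, was open in Hras.E1A + PD (rank 67.1), Hras.E1A + TSA (72.5) and Hras.Myc + TSA (18.3), and in neither untreated line. Pkp3, a plakophilin of the desmosome, was open in the untreated lines and with TSA and in Hras.Myc + PD, but neither in Hdac7SA.Mef2d nor in Hras.E1A + PD. Dsg2, a desmosomal cadherin, lacked a promoter peak in Hras.Myc + PD and Hras.Myc + TSA and had one in untreated Hras.Myc at rank 3.85. Grhl2 lacked it in Hras.Myc + TSA only, against rank 13.6 in untreated Hras.Myc. Ovol1 lacked it in Hras.Myc + PD only, against rank 22.9 in untreated Hras.Myc. The untreated Hras.Myc peaks of Dsg2, Grhl2 and Ovol1 thus had low ranks.

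Own promoters of members were weak relative to promoters in general. Their median rank was 29.2 in Hdac7SA.Mef2d, against 48.7 for all promoter loci. It was 39.1 in Hras.E1A + PD, 42.4 in Hras.E1A + TSA and 38.1 in untreated Hras.E1A, against 54.7, 55.5 and 48.3 for all promoter loci. It was 43.5, 55.8 and 35.9 in Hras.Myc + PD, Hras.Myc + TSA and untreated Hras.Myc, against 53.6, 68.7 and 50.0. The promoters of Grhl1 and Cgn, a scaffold of the tight junction, stood above this, at ranks from 90.1 to 97.3 and from 60.4 to 96.7 over the lists, while that of Dsp, the desmosomal link to keratin, ranged from 1.44 to 33.7.

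With PD, most own promoter loci kept their state. In Hras.E1A, 1 of 37 open without treatment closed (2.7%, 0.0684 to 14.2), against 6.98% of promoter loci over all genes. There 2 of 38 open with PD had opened. In Hras.Myc, 5 of 36 closed (13.9%, 4.67 to 29.5), against 7.16%, and 2 of 33 had opened. The 5 were a promoter locus each at Krt19, Ocln, Dsg2, Ovol1 and Ovol2, and at Krt19, Ocln and Ovol2 another promoter locus of the same gene kept its peak. Own and other promoter loci in the windows together closed with PD at 9 of 135 loci (6.67%, 3.09 to 12.3) in Hras.E1A, against 6.98% over all genes. In Hras.Myc they closed at 15 of 131 loci (11.5%, 6.55 to 18.2), against 7.16%. Promoter loci that opened were 5 of the 131 open in Hras.E1A + PD (3.82%), against 3.52% over all genes, and 4 of the 120 open in Hras.Myc + PD (3.33%), against 4.49%. The intervals of the members included the share of all genes in each case where one is given.

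Distal loci were far more labile. In Hras.E1A, 178 distal loci of members were open with PD, against 265 untreated. Of the 265, 106 closed (40.0%, 34.1 to 46.2), against 44.6% of distal loci in the windows of all genes. In Hras.Myc, 188 were open with PD, against 235 untreated. Of the 235, 90 closed (38.3%, 32.1 to 44.8), against 46.0% over all genes. In the lists as deposited, the members thus lost distal loci at a share near that of all genes in Hras.E1A. In Hras.Myc their share was below it. With lists of equal size the Hras.Myc share was 37.2% (30.3 to 44.4), against 44.2% over all genes. Without the 25% of peaks with the lowest scores it was 49.1% (41.4 to 56.9), against 51.6%. Both intervals included the share of all genes. The Hras.Myc share was 46.5% when only loci nearest to a member's TSS were taken, for which no share over all genes was computed. The median share closed per gene was 41.4% in Hras.E1A and 38.8% in Hras.Myc over the members, against 40.0% and 42.9% over all genes with an open distal locus. In the lists as deposited, opening was rarer than over all genes. Loci opened with PD made up 19 of the 178 open in Hras.E1A + PD (10.7%, 6.55 to 16.2), against 19.4%, and 43 of the 188 open in Hras.Myc + PD (22.9%, 17.1 to 29.5), against 30.2%. In lists brought to equal size, opened loci made up 34.4% (27.1 to 42.2) for Hras.E1A, while for Hras.Myc their share was 36.2% (29.3 to 43.5), against 39.0% and 40.4% over all genes, so that the intervals included the share of all genes. Without the 25% of peaks with the lowest scores they made up 22.2% (15.3 to 30.5) and 28.7% (20.9 to 37.6), against 25.8% and 37.0%, again within the intervals.

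**Figure D2:**
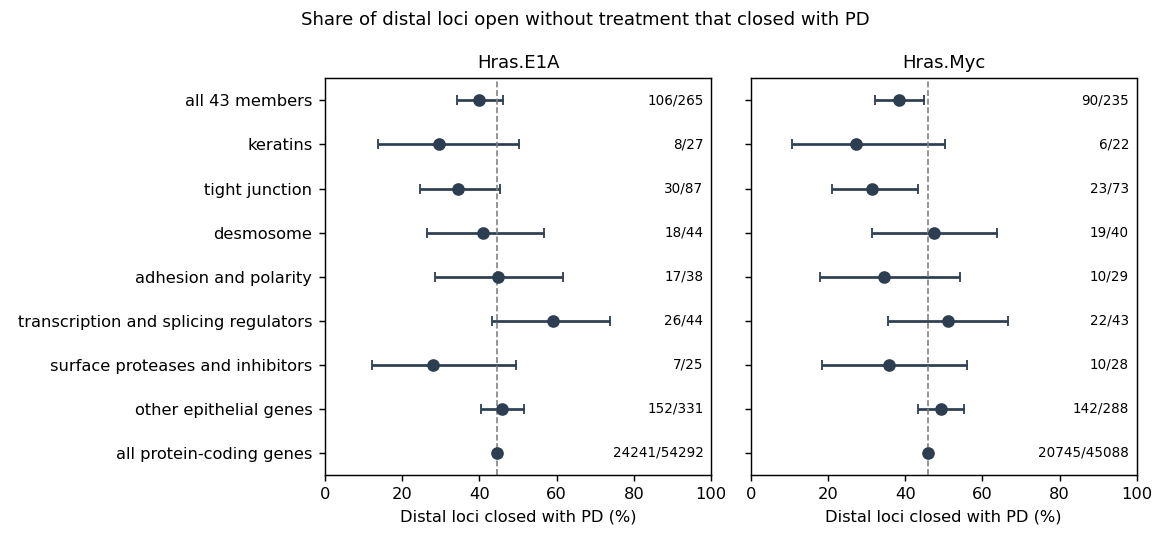
Share of the distal loci open in the untreated list that closed with PD, in Hras.E1A (left) and Hras.Myc (right), with closed over open loci printed at the right of each row. Points are shares with exact 95% intervals for counting error, and the dashed line is the share over all protein-coding genes (44.6% and 46.0%), which lies within the interval of every role group except the tight junction genes in Hras.Myc.

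Of the role groups, the regulators had the highest share closed in both lines. Their loci closed with PD at 26 of 44 (59.1%, 43.2 to 73.7) in Hras.E1A and 22 of 43 (51.2%, 35.5 to 66.7) in Hras.Myc. Grhl2 alone supplied 8 of these 26 and 9 of these 22, with 11 open loci in each untreated line. Without Grhl2 the regulators would still lead in Hras.E1A but not in Hras.Myc, where the desmosome genes stood at 47.5%. The tight junction genes closed at 30 of 87 (34.5%, 24.6 to 45.4) and 23 of 73 (31.5%, 21.1 to 43.4). The desmosome genes closed at 18 of 44 and 19 of 40, the adhesion and polarity genes at 17 of 38 and 10 of 29, the keratins at 8 of 27 and 6 of 22, and the proteases and inhibitors at 7 of 25 and 10 of 28. These groups are small, their intervals overlap, and the groups were formed after the files had been seen. A list of 45 other epithelial genes, among them more claudins, keratins and polarity genes, closed at 152 of 331 loci (45.9%, 40.5 to 51.5) in Hras.E1A and 142 of 288 (49.3%, 43.4 to 55.2) in Hras.Myc. In the lists as deposited, more loci closed than opened at 40 of the 44 with an open distal locus in Hras.E1A (90.9%) and at 33 of 44 in Hras.Myc. The polarity gene Pard3 had most closed loci, 16 of 27 in Hras.E1A with 11 opened, and 18 of 23 in Hras.Myc with 7 opened. Myo5b, a motor of apical transport, closed 14 of 19 and 11 of 15 and opened 2 in each line, so that its net loss in Hras.E1A, to 7 loci with PD, was larger than that of Pard3, which had 22. The junction proteins came next, Cgnl1 with 7 of 17 and 11 of 16 closed and 1 and 3 opened, and Pkp4 with 9 of 13 and 6 of 9 closed and none and 2 opened.

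Counts per gene from here on are for the lists as deposited. Of the 42 members with a distal locus open in Hras.E1A with or without PD (all but Krt5), more distal loci closed than opened at 34 (81.0%), against 72.5% of all genes with such a locus. More opened than closed at 1, Cldn3 (2.38%, against 9.11%), and as many at 7. In Hras.Myc more closed at 28 of 42 (66.7%, against 65.2%), more opened at 10 (23.8%, against 16.3%), and as many at 4. The excess of closing depended on list size. The untreated lists held 81201 (Hras.E1A) and 67738 (Hras.Myc) peaks, and the PD lists 59823 and 56774. In lists of equal size, 61 member loci closed and 56 opened in Hras.E1A, and 71 closed and 68 opened in Hras.Myc. Over all genes 15326 closed and 13721 opened in Hras.E1A, and 16461 and 14092 in Hras.Myc. Grhl2, whose protein is a pioneer factor at epithelial enhancers, lost most over both lines. It had 4 distal loci open in Hras.E1A + PD against 11 untreated, and 2 in Hras.Myc + PD against 11 untreated. Of the 11 open in untreated Hras.E1A 8 closed, and of the 11 open in untreated Hras.Myc, not all the same loci, 9 closed. The lines had 5 of the closed loci in common, and 1 opened in Hras.E1A and none in Hras.Myc. These 5 lay 40032 bp and 6057 bp upstream of the TSS and 11454, 22720 and 31466 bp downstream. The locus 31466 bp downstream held a rank of 98.3 in untreated Hras.E1A cells and of 98.8 in Hras.Myc cells, among the strongest peaks of either list, and the one at 11454 bp held 95.5 and 97.1. Neither was open in Hdac7SA.Mef2d, while the locus at 22720 bp was (rank 96.9). All 5 were open with TSA in both lines. A further locus within the gene, 95852 bp downstream, was open in all 7 lists at ranks from 72.8 to 97.0, so the loss of loci was not uniform across the gene.

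**Figure D3:**
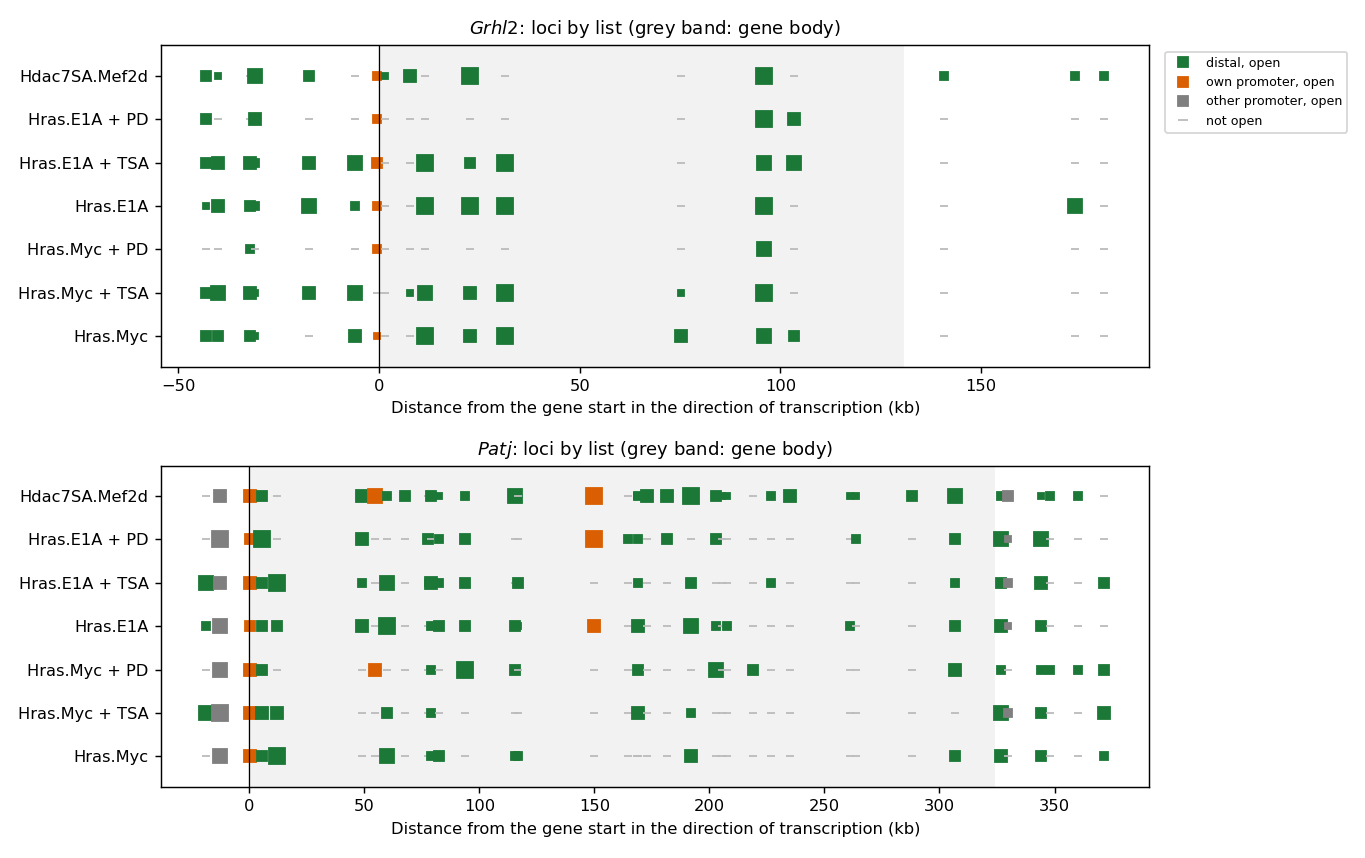
Loci of Grhl2 and Patj by distance from the gene start (kb), 1 row per list, with squares for open loci that grow with the rank of the peak and dashes where the list had no peak. At Grhl2 the 3 intronic loci 11454 to 31466 bp downstream of the TSS are filled in untreated and TSA rows and empty in the PD rows of both Hras lines, and the locus at 95852 bp is filled in every row.

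The paralogs of Grhl2 differed from it. Grhl1 lost 5 of 8 distal loci in Hras.E1A and gained 1, while in Hras.Myc it lost 1 of 6 and gained 2. Grhl3, which acts in barrier formation of the skin, lost 3 of 7 in Hras.E1A, and lost 1 of 5 and gained 1 in Hras.Myc, with no locus lost in both. Ovol1 lost 4 of 5 distal loci in Hras.E1A and 3 of 5 in Hras.Myc, 3 of them the same, and gained none. Ovol2 lost 2 of 3 and 3 of 5 and gained 1 in each line. Elf3, an ETS factor of epithelia, lost 2 of 2 in Hras.E1A, where 1 opened, and 3 of 4 in Hras.Myc. Elf3 was the only member with no distal locus open in Hdac7SA.Mef2d.

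At the tight junction, Ocln, the gene of occludin, had 3 distal loci open with PD in each Hras line, against 9 untreated in each. It lost 6 in each line, 4 of them the same, and gained none, whereas with TSA it kept 9 in Hras.E1A and 8 in Hras.Myc. Tjp1, the gene of the scaffold ZO-1, had 14 open in Hras.E1A + PD against 23 untreated, and 13 in Hras.Myc + PD against 17 untreated, with 10 and 5 closed. Cldn6, a claudin of embryonic epithelia with no promoter locus, lost 5 of 9 and 3 of 8 distal loci. Cldn3 and Cldn4 went the other way in Hras.Myc. Cldn3 had 11 distal loci open in Hras.Myc + PD against 6 untreated, with 5 opened and none closed, and Cldn4 had 9 against 5, with 4 opened. The windows of these neighbours share loci, and each opened only 1 locus in Hras.E1A. Among the shared loci, the one 3728 bp downstream of the Cldn3 TSS was open in all 7 lists, at rank 99.7 in Hras.Myc + PD against 89.8 untreated. The opened loci of the pair had low ranks in Hras.Myc + PD, from 0.55 to 15.9. Cldn1 had 5 open in Hras.Myc + PD against 2 untreated, with 4 opened, and F11r, the junctional adhesion molecule JAM-A, had 7 against 5, with 4 opened and 2 closed.

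**Figure D4:**
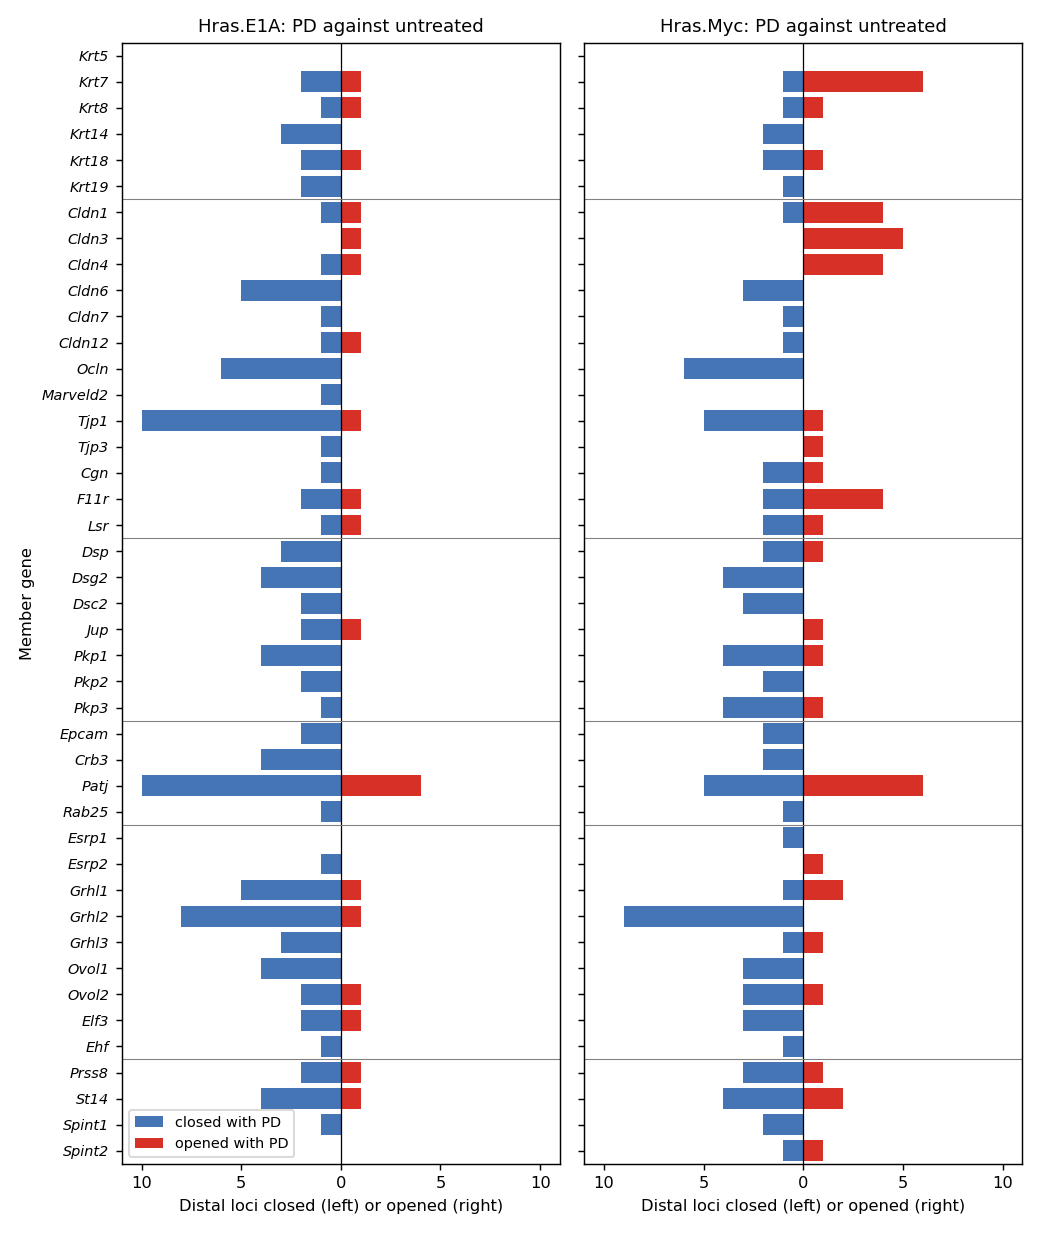
Distal loci closed (blue, left of the axis) and opened (red, right of the axis) with PD for each of the 43 members, by role group, in Hras.E1A (left) and Hras.Myc (right). The lists are those deposited, of unequal size. Bars for closing outnumber those for opening in both panels, and opening reaches 6 loci only at Krt7 and Patj in Hras.Myc.

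Of the keratins, Krt7, a keratin of simple epithelia, had 9 distal loci open in Hras.Myc + PD against 4 untreated, with 6 opened and 1 closed, and 5 in Hras.E1A + PD against 6 untreated. The Krt7 locus 15737 bp upstream was open in Hras.Myc + PD at rank 92.8, in Hras.E1A + PD at 35.0 and in Hdac7SA.Mef2d at 31.2, and in neither untreated Hras line. Krt14, a keratin of basal epidermis, lost 3 of 6 loci in Hras.E1A and 2 of 5 in Hras.Myc and gained none. Krt8 and Krt18, partner keratins of simple epithelia with adjoining genes, changed little in number. They had 11 and 10 distal loci in Hras.E1A + PD against 11 and 11 untreated, and 9 and 8 in Hras.Myc + PD against 9 and 9. In each line Krt8 closed 1 and opened 1, and Krt18 closed 2 and opened 1. Krt5 had no distal locus in either Hras line with or without PD.

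In the desmosome, Dsg2 had 3 distal loci open in Hras.E1A + PD against 7 untreated, and 1 in Hras.Myc + PD against 5 untreated, losing 4 in each line. Dsc2, also a desmosomal cadherin, had none open with PD in either line, against 2 untreated in Hras.E1A and 3 in Hras.Myc. Of these, the locus 24896 bp downstream of its TSS held ranks of 96.7 and 90.7 in the untreated lines. Pkp1 lost 4 of 14 and 4 of 13. Dsp lost 3 of 5 and 2 of 3. Pkp3 lost 1 of 6 in Hras.E1A and 4 of 8 in Hras.Myc. Of the polarity genes, Patj lost 10 of 19 distal loci in Hras.E1A with 4 opened, and in Hras.Myc lost 5 of 12 with 6 opened. Crb3, a partner of the polarity complex at the apical membrane, lost 4 of 6 and 2 of 4. Epcam lost 2 of 5 in each line, the same loci in both, and its promoter was open in all 7 lists at ranks from 52.9 to 69.6. Of the surface proteases, St14, the gene of matriptase, lost 4 of 10 and 4 of 11 and gained 1 and 2, and Prss8, the gene of prostasin, lost 2 of 4 and 3 of 5 and gained 1 in each. The other members closed at most 2 distal loci and opened at most 1 in a line.

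The lines shared part of the loss. Of 212 distal loci of members open in both untreated Hras lines, 54 closed with PD in both (25.5%, 19.8 to 31.9), against 29.8% over all genes. A further 19 closed in Hras.E1A only and 15 in Hras.Myc only. Both lines kept the peak at 124 (58.5%, 51.5 to 65.2), against 19210 of 39462 over all genes. The 54 lay in the windows of 26 members. Distal loci opened with PD in both lines numbered 8. For loci closed in 1 line only or opened in both, the share over all genes was not computed. Of the 54, 42 were open with TSA in both lines (77.8%, 64.4 to 88.0). The same share over all genes was not computed.

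With TSA itself, distal loci closed at 44 of 265 (16.6%, 12.3 to 21.6) in Hras.E1A, against 17.8% over all genes, and at 35 of 235 (14.9%, 10.6 to 20.1) in Hras.Myc, against 18.8%. Loci opened with TSA were 28 of the 249 open in Hras.E1A + TSA (11.2%, 7.60 to 15.8), against 15.8%, and 45 of the 245 open in Hras.Myc + TSA (18.4%, 13.7 to 23.8), against 22.9%. The TSA lists came from 1 library each. In Hras.Myc, Grhl2 had 12 distal loci open with TSA, against 11 untreated, and in Hras.E1A it had 11 in each.

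Hdac7SA.Mef2d cells had 300 of the 401 distal member loci open (74.8%, 70.3 to 79.0), against 77.5% over all genes. In the lists as deposited this was more than any Hras list, but the Hdac7SA.Mef2d list also held the most peaks. At equal list size Hdac7SA.Mef2d had 115 open, fewer than Hras.E1A (168 untreated, 163 with PD) or Hras.Myc (191 untreated, 188 with PD). Over all genes these lists were closer to level. They held 35569 in Hdac7SA.Mef2d, 36824 and 35219 in Hras.E1A, and 37230 and 34861 in Hras.Myc. Of the 300, 86 were open in neither untreated Hras line (28.7%, 23.6 to 34.1), against 43.1% over all genes, so loci particular to Hdac7SA.Mef2d among these lines were a smaller part of its open chromatin at the members. With lists of equal size the shares were 32.2% (23.8 to 41.5) and 45.6%. Patj held 10 of these loci, and Cldn1, Dsc2 and St14 held 5 each. In the other direction, 74 of the 288 loci open in an untreated Hras line were not open in Hdac7SA.Mef2d (25.7%, 20.7 to 31.1), against 25.9%. The members had a larger part of their distal loci open in all 7 lists, 100 of 401 (24.9%, 20.8 to 29.5), against 15.4% over all genes. Of the 54 loci closed with PD in both Hras lines, 29 were open in Hdac7SA.Mef2d (53.7%, 39.6 to 67.4), against 60.4% over all genes. Line by line, 64 of 106 loci closed in Hras.E1A (60.4%) and 45 of 90 closed in Hras.Myc (50.0%) were open there, against 65.6% and 58.1% over all genes. Of loci that kept their peak, 145 of 159 in Hras.E1A (91.2%) and 129 of 145 in Hras.Myc (89.0%) were open there, against 87.6% and 89.2% over all genes.

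The loci that closed with PD were rich in the AP-1 motif, as the sequences above show for some of the leading ones. The motif stood in the central 200 bp of 65 of 106 closed loci (61.3%, 51.4 to 70.6) in Hras.E1A, against 32 of 159 kept loci (20.1%, 14.2 to 27.2). In Hras.Myc it stood in 57 of 90 closed loci (63.3%, 52.5 to 73.2), against 35 of 145 kept loci (24.1%, 17.4 to 31.9). Among the 54 loci that both lines lost, 40 held it (74.1%, 60.3 to 85.0), against 22 of the 124 kept in both (17.7%, 11.5 to 25.6). Over all genes these shares were 66.7% and 22.4%. Loci that opened rarely held it, at 1 of 19 in Hras.E1A (5.26%, against 7.58% over all genes) and 7 of 43 in Hras.Myc (16.3%, against 10.3%). Closed and kept loci of all genes were divided in the same way. Over all genes the motif was in 13755 of 24241 closed loci (56.7%) and 6317 of 30051 kept loci in Hras.E1A, and in 53.1% of closed and 28.8% of kept loci in Hras.Myc. Over all distal loci it was in 31.9% of those of the members and 31.0% of those of all genes. In a central window of 100 bp the closed loci held it at 44.3% and 44.4%. Shares of kept loci and of all genes were not computed for that window.

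**Figure D5:**
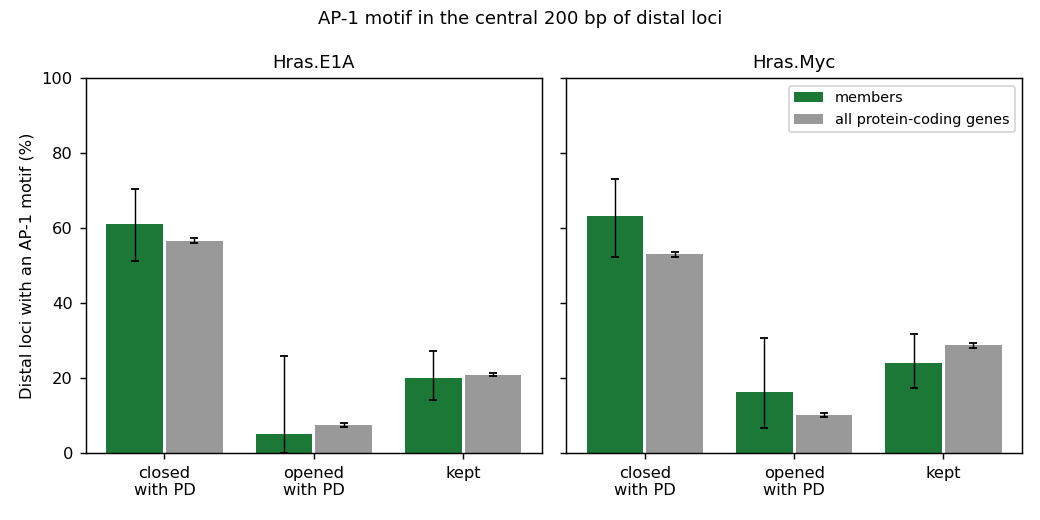
Share of distal loci with the AP-1 motif TGANTCA in their central 200 bp, among loci closed, opened and kept with PD, for the members (green) and all protein-coding genes (grey) in Hras.E1A (left) and Hras.Myc (right), with exact 95% intervals for counting error. Closed loci of the members stand at 61.3% and 63.3%, kept loci at 20.1% and 24.1%, and in both panels the grey bars show the same order.

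Other motifs divided closed from kept loci less. Searched on both strands were AACCNGTT for Grhl factors, CACCTG for the Zeb and Snai repressors of epithelial genes, CATTCC for TEAD, CCNCNCCC for KLF, CCGGAAG for ETS, TGTGGTT for RUNX and GCCNNNGGC for TFAP2 factors, and these letters can overlap each other. The Grhl letters were in none of the 106 and none of the 90 closed loci, against 1.30% and 1.29% over all closed loci, and the exact upper limits of the members were 3.42% and 4.02%. Closed loci held the TEAD letters at 12.3% in Hras.E1A and 10.0% in Hras.Myc, against 16.2% and 14.1% over all genes. Kept loci held them at 15.7% and 15.9%, against 17.2% and 17.3%. Opened loci stood higher, at 26.3% (9.15 to 51.2) and 20.9% (10.0 to 36.0), against 27.6% and 26.7%. The Zeb and Snai letters were in 15 of 106 closed and 26 of 159 kept loci in Hras.E1A, and in 19 of 90 and 24 of 145 in Hras.Myc. The share of closed loci was thus 14.2% (8.14 to 22.3) for Hras.E1A, while for Hras.Myc it was 21.1% (13.2 to 31.0), against 10.8% and 13.6% over all genes, and kept loci at 16.4% and 16.6%, against 14.5% and 14.3%. The KLF letters were in 27 of 106 closed and 43 of 159 kept loci in Hras.E1A, and in 27 of 90 and 37 of 145 in Hras.Myc. The interval of the closed share was 17.5% to 34.9% for Hras.E1A, while for Hras.Myc it ran from 20.8% to 40.6%, against 17.6% and 19.6% of closed loci over all genes, and kept loci stood at 27.0% and 25.5%, against 22.5% and 23.4%. RUNX letters were in 11.3% (Hras.E1A) and 8.89% (Hras.Myc) of closed loci, against 8.18% and 6.79% over all genes, and in 7.55% and 9.66% of kept loci. For TFAP2 the closed loci stood at 10.4% and 7.78%, against 6.83% and 6.79%, and kept loci at 11.9% and 13.1%. For ETS the closed loci stood at 0.0% and 2.22%, against 1.16% and 1.23%, and kept loci at 1.26% and 1.38%. A match is a description of the sequence and was not tested as a binding site.

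Position and strength separated closed from kept loci only weakly. Closed loci lay within the gene body of a member at 36 of 106 in Hras.E1A and 32 of 90 in Hras.Myc, and kept loci at 45 of 159 and 39 of 145. For position, shares over all genes were not computed. The median rank in the untreated list was 34.8 for closed and 42.0 for kept loci in Hras.E1A, and 38.2 and 46.5 in Hras.Myc. Over all genes these ranks were 41.9 and 53.4, and 42.1 and 53.3, so closed loci were the weaker ones in general. The part of peak strength in the loss of loci was not tested.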

How the data were processed

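ATAC-seq libraries of 7 groups of transformed MEFs were used. According to the study and the submitters' processing notes, the authors aligned reads to mm10 with Bowtie2 2.4.5, called peaks with MACS2 2.2.7.1 and recovered low-scoring peaks with redefine_peaks, which shares peaks between samples, so that the lists are not independent. The deposited files hold 1 pooled list per group, with peaks of 400 bp and a score from the authors whose scale is not stated (lowest 1.20); the score was used only as a rank within a list. Sequencing depth is unknown.

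Peaks overlapping by 1 bp were merged with Python 3.11.15 and pandas 2.3.3 and annotated with GENCODE M21 (basic). A locus was open in a list with an overlapping peak, closed with a treatment if open only untreated, and opened in the opposite case. Shares were computed for members and for all protein-coding genes with scipy 1.17.1, and motifs were searched in GRCm38.p6 (RefSeq). Some sequences of the leading loci are not reported here. The procedure was tested on simulated lists. The members and lists were chosen with earlier results of these data known. All members were counted. Described singly were those with 3 or more distal loci closed or 2 or more opened with PD in a line, and those with a promoter open in some lists only; Krt5, Krt8, Krt18, Epcam and Cgn were added after their values were seen, as were the role groups and all motifs but AP-1. Of the other epithelial genes, the 4 with most closed loci were named. Alternatives were windows, promoter widths, overlap rules, list sizes and motif windows.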

Additional observations from a re-analysis of the deposited data

Results flagged for a closer look

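At 7 members the net change in distal loci with PD, opened minus closed, had opposite signs in the Hras lines as deposited. The difference was not tested, since each line has 1 list per condition, and most of these counts are small. Krt7 had a net change of 5 in Hras.Myc and -1 in Hras.E1A, and Patj had 1 and -6. Grhl1 had 1 in Hras.Myc and -4 in Hras.E1A, and F11r had 2 and -1. Tjp3, Jup and Esrp2 each had 1 in Hras.Myc and -1 in Hras.E1A.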

How the results depend on the processing

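No paired analysis was possible because each group had 1 pooled list. Of 185 values recomputed under 18 other settings, 155 stayed within the interval of the reported share or within 1.5 times the reported count. Leaving out the TSA lists, or asking peaks to cover 50% of a locus, returned the reported values unchanged. These settings add to the 155 without probing the results. The share of distal loci closed with PD was 47.3% in Hras.E1A and 49.1% in Hras.Myc without the 25% of peaks with the lowest scores, against 49.1% and 51.6% over all genes. In Hras.Myc it was 45.1% in the gene bodies of members and 46.5% at loci nearest to a member. Promoter loci nearest to a member closed at 2.70% in Hras.E1A. With TSA, gene bodies gave 24.7% in Hras.E1A and 21.1% in Hras.Myc, where the share was also 22.0% with lists of equal size, 24.0% without these peaks and 20.9% within 10 kb. A motif window of 100 bp lowered the AP-1 share of closed loci to 44.3% and 44.4%. Loci closed in both lines numbered 20 in gene bodies, 29 within 10 kb and 31 nearest to a member. Loci open in Hdac7SA.Mef2d and in neither untreated Hras line numbered 34, 47 and 51 under these settings and 37 with lists of equal size. Opened loci numbered 10 (Hras.E1A) and 14 (Hras.Myc) in gene bodies, 56 and 68 with lists of equal size, and in Hras.Myc 18 within 10 kb and 27 nearest to a member. Smaller windows hold fewer loci by construction. Shares over all genes were not computed for smaller windows, for loci nearest to a member or for TSA under other settings. Members with an open own promoter fell to 9 in Hdac7SA.Mef2d and 18 in Hras.E1A with lists of equal size, and to 18 in Hdac7SA.Mef2d, 19 in Hras.Myc and 18 in Hras.Myc + PD without these peaks, since these promoters have low ranks. The background (all genes) in other settings, own promoters included, and distal shares under other promoter widths were added after seeing the data. Depth is unknown, and absence of a peak does not mean absence of reads.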
